A study of Mus musculus with 41 samples.

Results

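The question here is where the MYC tag of an induced wild-type SOX9 (WT-SOX9) sat on the chromatin of cultured epidermal stem cells (EpdSCs), compared with the same kind of cells left uninduced. CUT&RUN (CNR) maps a protein with a nuclease that the antibody brings to it, which cuts out short DNA fragments for sequencing. The members are the peaks of both MYC-tag lists of WT-SOX9 cells, 6671 with doxycycline (DOX) and 2242 without, which makes 8913 of the 134176 peaks in the 11 pooled lists used here, out of a series of 41 mouse samples. A peak that overlapped the other list by at least 1 bp was counted as shared, and the rest as DOX-only or no-DOX-only.

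Both groups were keratinocytes from back skin of male CD1 mice, with no age in the labels and a genotype labelled as K14rtTA with TRE-myc-Sox9, and each had 2 samples. By the study's methods, the cells expressed rtTA from the Krt14 promoter, were transduced with a lentivirus carrying MYC-tagged SOX9 behind a TRE promoter, and were selected in puromycin. The methods describe the isolation of cultured EpdSCs from newborn pups. By that description the no-DOX cells carried the same rtTA, vector and selection, and the groups differed in DOX, given at 1 µg/ml. The genotype label names no lentivirus, so labels and methods describe the cells differently. The transduced cells were a selected pool and the duration of DOX is not given in the sources used here. Other lists served for comparison: MLL3/4 CNR of WT-SOX9 cells with and without DOX, MYC-tag CNR of SOX9 without its transactivation domain (ΔTA-SOX9) or its DNA-binding domain (ΔHMG-SOX9) with DOX, and SOX9 CNR of EpdSCs sorted from skin before DOX (D0) and 1, 2, 6 and 12 weeks after it (W1 to W12).

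SOX9 is a transcription factor of the hair follicle stem cell (HFSC) lineage that is not normally present in the stem cells of the interfollicular epidermis. It binds DNA through an HMG box that recognises words with the core CATTGT or CTTTGT, and together with SOX8 and SOX10 it belongs to a SOX subgroup that can bind as a dimer to paired words facing each other. Pioneer factors of this kind can bind closed chromatin, and MLL3 and MLL4 are the enzymes that place the enhancer mark H3K4me1. In this design the antibody sees the tag, so peaks of uninduced cells give the background against which peaks of induced cells are read.

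With a single pooled list for each group there is no replicate error to set a difference against, and none of the contrasts carries a p-value. Intervals beside shares are 95% Wilson intervals and those beside differences of shares Newcombe intervals, and both cover counting error over peaks only. Peaks are not replicates of a condition. The lists give the maximum of a peak in RPKM, and all maxima were whole multiples (within 0.02 of a fragment) of the RPKM of 1 fragment, which was 164 with DOX and 202 without. At the single-base coverage that the peak borders show, this amounts to 6.09 M fragments with DOX and 4.94 M without. Both lists hold only peaks with a maximum above 1800 RPKM, so the weakest peak had 11 fragments at its maximum with DOX and 9 without. The identity of the cells was checked against marker genes with the MLL3/4 list of uninduced cells. MLL3/4 peaks lay within 1 kb of a start in 10 of 26 epidermal structural genes (38.5%), against 23.3% of all 21911 protein-coding genes. Krt5 and Krt14 were among them, but Krt1, Krt10, Itga6 and Dsp were not. Such a peak was found in 11 of 17 epidermal transcription factor genes (64.7%), with Trp63 not among them. The same held for 0 of 10 melanocyte, 0 of 8 fibroblast, 1 of 8 immune cell and 1 of 6 endothelial cell markers.

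The sequences below are windows that reach 50 bases before and after the middle of the maximum, from peaks that ranked highest by total signal in each class and could be printed, shown to let the leading peaks of each class be read side by side. The full SOX word is in none of these DOX-only windows, the core word is in that of Grik2, that of Usp32 and the no-DOX-only window of Sfi1, and the difference between classes lies in the shares over all peaks given further on. All come from the mm10 reference, plus strand, 5′ to 3′, with the SOX core word in capitals wherever it occurs, as CATTGT (reverse complement ACAATG) and the variant CTTTGT (reverse complement ACAAAG).
DOX-only, intron of Grik2, chr10:49657965-49658065: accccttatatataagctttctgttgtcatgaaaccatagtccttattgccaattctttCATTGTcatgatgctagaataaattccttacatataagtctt
DOX-only, intron of Usp32, chr11:85078818-85078918: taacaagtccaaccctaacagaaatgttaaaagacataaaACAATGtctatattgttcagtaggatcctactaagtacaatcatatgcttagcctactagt
DOX-only, 3201 bp from the start of Clca4a, chr3:144978196-144978296: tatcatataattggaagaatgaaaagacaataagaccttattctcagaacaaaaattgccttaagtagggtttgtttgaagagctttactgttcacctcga
DOX-only, 42139 bp from the start of Tfpi, chr2:84518864-84518964: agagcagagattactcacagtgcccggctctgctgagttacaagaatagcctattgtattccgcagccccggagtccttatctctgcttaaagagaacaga
Shared, Gm10800, chr2:98667082-98667182: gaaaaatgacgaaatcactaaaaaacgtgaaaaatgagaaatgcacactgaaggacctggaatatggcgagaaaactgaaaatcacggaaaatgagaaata
Shared, Gm10801, chr2:98662269-98662369: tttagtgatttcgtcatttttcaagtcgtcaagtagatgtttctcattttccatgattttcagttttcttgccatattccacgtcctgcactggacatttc
No-DOX-only, exon of Kmt2c, chr5:25387899-25387999: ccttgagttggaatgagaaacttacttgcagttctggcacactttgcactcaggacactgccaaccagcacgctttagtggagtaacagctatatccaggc
No-DOX-only, promoter of Sfi1, chr11:3142165-3142265: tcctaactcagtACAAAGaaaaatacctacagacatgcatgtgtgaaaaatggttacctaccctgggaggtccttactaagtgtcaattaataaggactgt

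The second set shows pairs of core words that face each other, taken from high-ranking DOX-only peaks with a gap of 3, 4 or 5 bp between the words. Both words are in capitals with 12 bases to each side, again on the plus strand of mm10, and any further core word in these flanks is left in lower case. The pairs, like the AP-1 examples after them, were picked after the data were seen.
Gap of 3 bp, between genes with Plekhb2 nearest, chr1:35115886-35115924: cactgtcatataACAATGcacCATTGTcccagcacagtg
Gap of 3 bp, intron of Grm7, chr6:111142754-111142792: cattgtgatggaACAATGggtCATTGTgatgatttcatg
Gap of 4 bp, between genes, 55181 bp from the start of Postn, chr3:54444048-54444087: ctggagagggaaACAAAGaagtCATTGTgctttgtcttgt
Gap of 4 bp, intron, 10794 bp from the start of Anxa2, chr9:69467653-69467692: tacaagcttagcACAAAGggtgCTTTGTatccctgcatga
Gap of 5 bp, intron, 85122 bp from the start of Rtn1, chr12:72323909-72323949: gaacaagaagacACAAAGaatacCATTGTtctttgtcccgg
Gap of 5 bp, between genes, 19415 bp from the start of Dusp6, chr10:99243812-99243852: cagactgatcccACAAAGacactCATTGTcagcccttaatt

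The third set shows the word of AP-1, TGACTCA or TGAGTCA, in capitals in high-ranking no-DOX-only peaks away from promoters. AP-1 proteins (the FOS and JUN family) are abundant in keratinocytes.
No-DOX-only, intron, 6234 bp from the start of Eif2ak3, chr6:70872268-70872298: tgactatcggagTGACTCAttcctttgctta
No-DOX-only, between genes, 51224 bp from the start of Rnf24, chr2:131404079-131404109: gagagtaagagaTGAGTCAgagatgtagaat
No-DOX-only, between genes with Dmrt2 nearest, chr19:26091526-26091556: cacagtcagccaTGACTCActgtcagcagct

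Most peaks of each list were absent from the other. The shares differ between the lists, which differ in size, and with the highest 2242 peaks of each they were 93.8% of DOX and 93.4% of no-DOX peaks. Of the 6671 peaks with DOX, 6284 (94.2%, 95% CI 93.6 to 94.7) overlapped no peak of the no-DOX list, and 387 (5.80%, 5.27 to 6.39) were shared. Of the 2242 peaks without DOX, 1846 (82.3%, 80.7 to 83.9) were absent from the DOX list and 396 (17.7%, 16.1 to 19.3) were shared. After the no-DOX list was moved by 10 kb to each side, 0.585% of DOX peaks overlapped it, and 1.98% of no-DOX peaks overlapped the DOX list moved in the same way. Above 3600 RPKM in both lists, 55.5% of the 128 remaining no-DOX peaks were absent from the DOX list. The threshold was in RPKM and thus somewhat stricter in fragments with DOX than without. The list of no-DOX replicate 1 alone, which was not cut at 1800 RPKM and reached down to 2 fragments, overlapped 228 of the 6284 DOX-only peaks (3.63%, 3.19 to 4.12). It overlapped 86.5% of the no-DOX-only peaks, but that sample is part of the pooled list, so this is no independent replicate.

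DOX-only peaks were wider and taller than no-DOX-only peaks. Their median width was 188 bp (quartiles 130 to 264 bp) against 116 bp (89 to 159 bp), and shared peaks had 202 bp in the DOX list. The median maximum was 14 fragments in DOX-only peaks and 10 in no-DOX-only peaks, and the highest reached 152 and 41. Of the no-DOX-only peaks, 64.3% (62.1 to 66.5) lay within 1 fragment of the weakest peak of their list, against 31.5% (30.4 to 32.7) of DOX-only peaks. A maximum of at least 20 fragments was found in 1726 DOX-only peaks and in 13 no-DOX-only peaks. These fragment numbers are not scaled to depth.

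The shared peaks held the top of both lists and then fell away differently. The 10 highest peaks by total signal were shared in the DOX list and in the no-DOX list alike. In the no-DOX list, 64.0% (57.5 to 70.0) of the highest 10% of peaks were shared and 8.04% (5.14 to 12.3) of the lowest 10%. In the DOX list, the same shares were 8.53% (6.64 to 10.9) and 3.30% (2.19 to 4.94). The median shared peak ranked at the 82.4th percentile of the no-DOX list and at the 55.5th percentile of the DOX list. The DOX list is longer, so these shares and percentiles are not at equal length. Among the highest 500 peaks, 44 of the DOX list and 215 of the no-DOX list were shared. Each was searched against the whole other list.

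**Figure D1:**
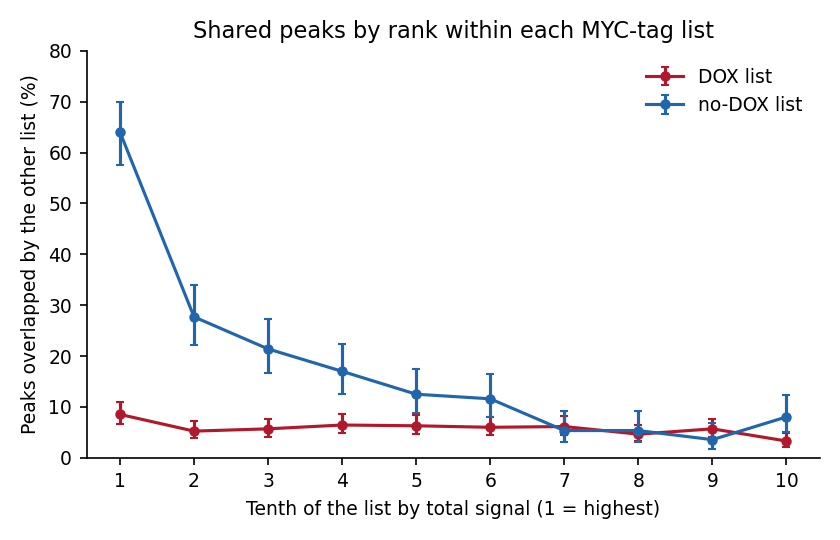
Share of peaks (%, vertical axis) overlapped by the other MYC-tag list in each 10% of a list ordered by total signal (horizontal axis, 1 is highest), with 95% Wilson intervals over peaks. The no-DOX list falls from 64.0% to 8.04%, whereas the DOX list stays between 3.30% and 8.53%.

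The 387 shared peaks had to exceed 1800 RPKM in both lists, and with median maxima of 2298 RPKM with DOX and 2631 without, many lay near that threshold. The selection thus bears on their ratio, which is given as a description. Their maximum in RPKM was higher with DOX in 157 and the median ratio of DOX to no-DOX was 0.973 (quartiles 0.746 to 1.17). It was at least 2 times as high in 14 peaks, and at most 0.5 times as high in 19. Over these 387 peaks the rank percentiles in the lists had a Spearman correlation of 0.384, a description of peaks that share libraries. The highest was a peak of 1098 bp on Gm10800 at chr2:98666237-98667334, with 4100 fragments with DOX and 3569 without. Its window was 100% marked as repeats in the reference. The next, Gm10801 on the same chromosome, an intron of Gm33838 and an intron of Chl1, had 735, 1090 and 801 fragments with DOX and 664, 940 and 781 without. All of these also overlapped every other list, that of skin before DOX included. The fourth in rank lay on Gm26917 at chr17:39842999-39846686, was 3688 bp wide and had 51 and 57 fragments.

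Many shared peaks stood in few places. Within 50 kb of one another, 71 of 387 fell into 3 groups of at least 5 peaks, namely 40 peaks at Sfi1 on chromosome 11 (chr11:3132736-3199877), 22 at the end of chromosome 9 (chr9:3000002-3038279) and 9 on chromosome 14 (chr14:19415709-19419496). The windows of all 22 and all 9 peaks of the last groups were over 50% soft-masked, that is marked as repeats in the reference. Among all shared peaks this held for 15.2% (12 to 19.2), among DOX-only peaks for 4.66% (4.17 to 5.21) and among no-DOX-only peaks for 12.2% (10.8 to 13.8). The part of repeats in the shared signal was not tested.

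The Sox9 gene itself carried 3 shared peaks and 0 DOX-only peaks within 50 kb. All 3 lay inside the gene, which starts at chr11:112782224, from chr11:112782585 to chr11:112785461. The first counted as promoter by its distance to a start, and the others lay in exons. Their maxima reached 51 fragments with DOX and 91 without. All 3 overlapped MLL3/4 peaks of uninduced cells, and 0 of 3 overlapped MLL3/4 peaks with DOX or the skin lists of W1 or W12. The vector carries the Sox9 coding sequence, and reads from that copy and from the exons of the gene cannot be told apart.

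DOX-only peaks lay away from promoters. Of them, 12.5% (11.7 to 13.4) fell within 1 kb of an annotated transcription start, against 38.8% (36.6 to 41.0) of no-DOX-only and 59.4% (54.5 to 64.2) of shared peaks. The difference between DOX-only and no-DOX-only peaks was -26.3 percentage points (-28.6 to -23.9). With promoters reaching 2.5 kb from a start the shares were 21.4% and 46.7%, and above 3600 RPKM they were 9.05% and 73.2%, the latter over 71 peaks. Introns held 47.5% of DOX-only and 31.1% of no-DOX-only peaks, and intergenic sequence 36.8% and 28.0%. The median distance to the start of a protein-coding gene was 21176 bp in DOX-only peaks, 6040 bp in no-DOX-only peaks and 624 bp in shared peaks. Promoters were rarer among the highest DOX-only peaks, with 7.36% (5.55 to 9.71) in the highest 10% of the DOX list and 14.9% (12.3 to 17.8) in the lowest. In the no-DOX list the order was opposite, since 61.7% (50.8 to 71.6) of no-DOX-only peaks in the highest 10% and 27.7% (22.0 to 34.1) in the lowest lay at promoters.

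Base composition moved with these places. The median GC content of the window was 40.6% in DOX-only, 49.5% in no-DOX-only and 47.5% in shared peaks, and at least 5 CpG stood in 3.56%, 24.5% and 32.6% of windows. The GC box, GGGCGG, a word of GC-rich promoters, was found in 2.74% of DOX-only windows (controls 1.58%), 13.3% of no-DOX-only windows (2.30%) and 16.5% of shared windows (4.13%). All words were searched on both strands.

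The SOX word set DOX-only peaks apart from the others. Written out, it is CCATTGT with the variants CCTTTGT at the third letter, GCATTGT at the first letter and GCTTTGT at both. It was found within 50 bp of the centre of the maximum in 2257 of 6284 DOX-only peaks (35.9%, 34.7 to 37.1), against 6.54% of control windows 1 kb to each side. In no-DOX-only peaks it was found in 5.09% (4.18 to 6.19) and in 6.61% of their control windows. Shared peaks held it in 7.24% (5.05 to 10.3) and their controls in 5.56%. Away from promoters, the 157 shared peaks held it in 10.8% (6.87 to 16.7) against 5.10% (3.16 to 8.12) of controls. They held the core word in 24.2% (18.2 to 31.5) against 10.8% (7.85 to 14.8). The longer word CCATTGTT or CCTTTGTT was rarer but more concentrated, with 12.2% of DOX-only peaks against 1.11% of controls. DOX-only peaks at promoters held the SOX word in 27.2% (24.2 to 30.4), against 6.42% of their controls.

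The core word CATTGT or CTTTGT stood in 59.5% (58.3 to 60.7) of DOX-only windows against 15.2% of control windows. It gathered at the maximum itself, with 24.2 and 23.4 words per 100 peaks in the 20 bp before and after the centre and 3.26 to 4.55 between 200 and 300 bp to either side of it. No-DOX-only peaks showed 2.11 and 2.71 words per 100 peaks at the centre and no rise there. The share with a core word went from 73.3% (69.7 to 76.7) in the highest 10% of the DOX list to 46.8% (43.0 to 50.7) in the lowest. It did not reach the level of control windows even in the weakest peaks.

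**Figure D2:**
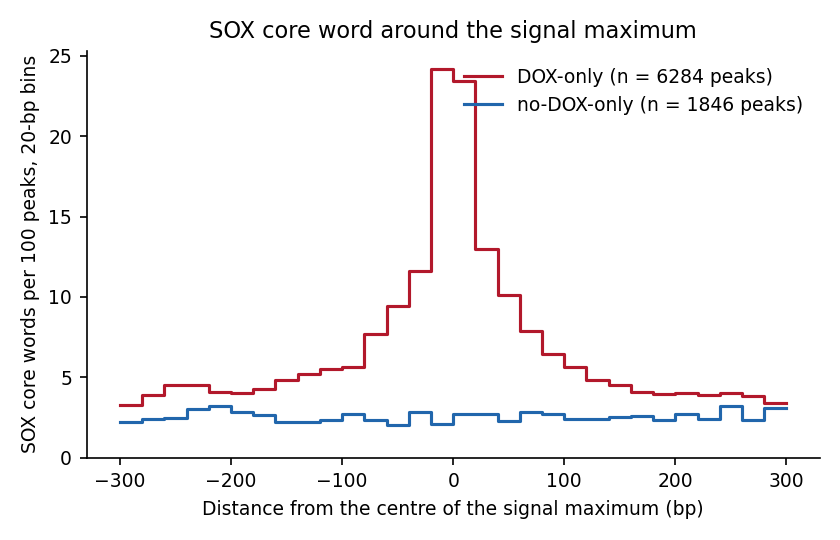
SOX core words per 100 peaks in bins of 20 bp (vertical axis) by distance from the centre of the signal maximum in bp (horizontal axis), for 6284 DOX-only and 1846 no-DOX-only peaks. DOX-only peaks reach 24.2 words per 100 peaks next to the centre, and no-DOX-only peaks stay near 2.11 to 2.71 there.

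Pairs of core words showed a preferred geometry. Words facing each other (ACAATG or ACAAAG followed by CATTGT or CTTTGT) with a gap of 3 to 5 bp were found in 225 DOX-only windows (3.58%, 3.15 to 4.07), against 6 of 12568 control windows (0.0477%). A gap of 4 bp was the most frequent with 113 windows, next to 67 with 3 bp and 45 with 5 bp, and gaps of 2 and 6 bp had 10 and 7. Among 1846 no-DOX-only peaks 0 held such a pair, which allows a share of up to 0.163% by a limit of 3 counts and 0.208% by the Wilson interval,, and among 387 shared peaks 1 did. Pairs in the same direction gathered at a gap of 1 bp, with 81 DOX-only windows (1.29%, 1.04 to 1.60) against 2 of 12568 control windows. The examples printed above are among the highest peaks at each gap, and Postn (periostin, a matrix protein) and Dusp6 (a phosphatase of ERK) were among the nearest genes.

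**Figure D3:**
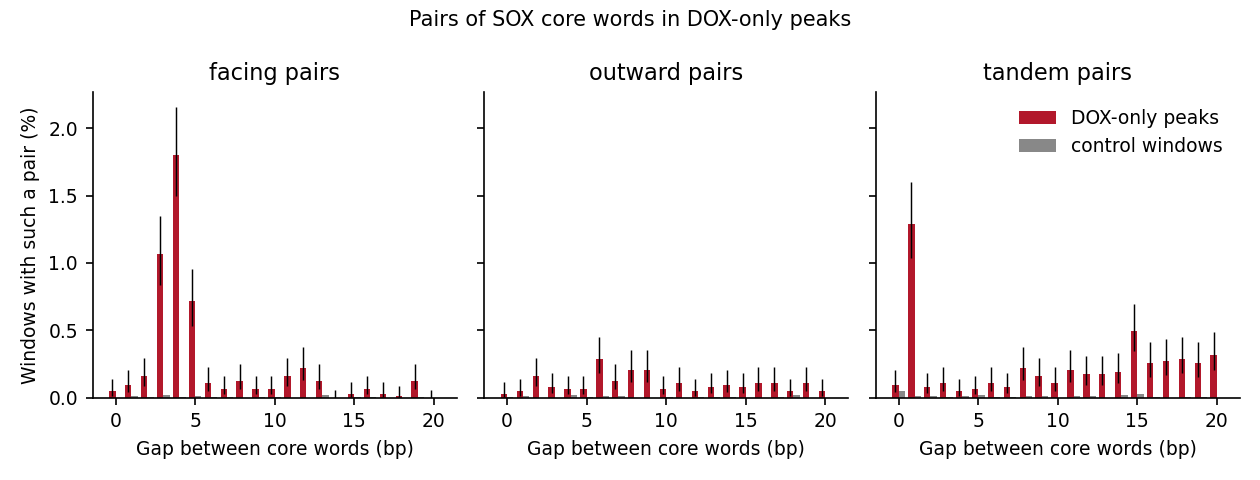
Share of windows (%, vertical axis) with a pair of SOX core words at each gap (bp, horizontal axis) in DOX-only peaks (red, with 95% Wilson intervals) and control windows 1 kb away (grey), for facing, outward and tandem pairs. Facing pairs stand out at 3 to 5 bp, highest at 4 bp with 113 of 6284 peaks, and tandem pairs at 1 bp with 81.

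The 225 peaks with a facing pair differed from the other DOX-only peaks in height and in overlap with MLL3/4. Their median maximum was 19 fragments (quartiles 14 to 31), against 16 in the 3515 peaks with a core word but no such pair and 14 in the 2544 without a core word. MLL3/4 peaks of uninduced cells overlapped 11.1% (7.64 to 15.9), 16.7% (15.5 to 17.9) and 34.3% (32.5 to 36.1) of these classes. With DOX, MLL3/4 peaks overlapped 40.4% (34.2 to 47.0) of the peaks with a facing pair, 56.8% (55.2 to 58.5) of those with a core word and 57.1% (55.2 to 59.0) of those without. In skin at W12, SOX9 peaks overlapped 56.9% (50.4 to 63.2), 38.6% (37.0 to 40.2) and 35.5% (33.7 to 37.4). All 3 classes were formed after the data were seen.

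The AP-1 word was above its controls in both classes. It was found in 7.19% (6.58 to 7.86) of DOX-only windows against 1.65% of their controls, and in 12.8% (11.3 to 14.4) of no-DOX-only windows against 2.03%. Away from promoters, no-DOX-only windows held it in 18.1% (16.0 to 20.5) against 2.04%. CACGTG, the E box of MYC and related factors, was found in 2.76% (2.11 to 3.61) of no-DOX-only windows against 1.06% of controls, and in 1.08% (0.855 to 1.37) of DOX-only windows against 1.23%. The GATA word (AGATAAC or AGATAAG) was near its controls in DOX-only windows, at 2.42% against 2.58%, and the RUNX word (AACCACA) slightly above them, at 3.18% (2.78 to 3.65) against 2.47%.

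The MLL3/4 lists with and without DOX overlapped different classes of MYC-tag peaks, and they differ in size, with 10543 peaks with DOX and 33975 without. Without DOX, MLL3/4 peaks overlapped 23.6% (22.6 to 24.7) of DOX-only peaks, 66.2% (64.0 to 68.3) of no-DOX-only peaks and 94.8% (92.2 to 96.6) of shared peaks. With DOX they overlapped 56.4% (55.1 to 57.6), 25.3% (23.4 to 27.3) and 61.2% (56.3 to 66). With the list without DOX cut to its highest 10543 peaks by total signal, an alternative chosen after seeing the data, the shares without DOX were 13.3% (12.5 to 14.2), 45% (42.8 to 47.3) and 78% (73.6 to 81.9). A lower share in the smaller list is therefore no measure of MLL3/4 lost from those peaks. The MLL3/4 samples with DOX carry titles numbered 1 and 2, but each is described as replicate 2, and the libraries behind that list are therefore uncertain.

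Of the 6284 DOX-only peaks, 2451 (39.0%, 37.8 to 40.2) lay on an MLL3/4 peak with DOX alone, 1091 (17.4%) on one with and without DOX, 392 (6.24%) on one without DOX alone and 2350 (37.4%) on neither. The SOX word was found in 39.0% (37.1 to 41.0) of those with MLL3/4 after DOX alone and in 39.8% (37.8 to 41.8) of those with neither. It was found in 27.4% (24.8 to 30.1) of those with both and in 16.8% (13.5 to 20.9) of those with MLL3/4 before DOX alone. In the same order of states, the AP-1 word was found in 4.61% (3.85 to 5.51), 4.98% (4.17 to 5.93), 15.3% (13.3 to 17.6) and 14% (10.9 to 17.8). Height moved with these states, since the median maximum was 18 fragments where MLL3/4 came with DOX alone and 13 where there was neither. In the highest 10% of the DOX list, 94.9% (92.9 to 96.4) of DOX-only peaks lay on an MLL3/4 peak with DOX, against 22.6% (19.6 to 26.0) in the lowest 10%, whereas MLL3/4 without DOX differed little, at 21.9% and 24.5%. The median width of all peaks in these parts of the list was 361 bp and 83 bp. Wider peaks have more room for an overlap of 1 bp, and the part of width was not tested.

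The SOX9 mutants overlapped few DOX-only peaks. The ΔTA-SOX9 list, with 11341 peaks, overlapped 17.4% (16.5 to 18.3) of them, and the ΔHMG-SOX9 list, with 3980 peaks, 3.23% (2.82 to 3.70). Of no-DOX-only peaks, ΔTA-SOX9 overlapped 25.6% (23.7 to 27.7) and ΔHMG-SOX9 16.0% (14.4 to 17.7), although both mutant lists came from cells with DOX. The differences between DOX-only and no-DOX-only peaks were -8.25 percentage points (-10.5 to -6.08) and -12.8 points (-14.5 to -11.1). Shared peaks were overlapped in 49.6% (44.7 to 54.6) by ΔTA-SOX9 and in 57.9% (52.9 to 62.7) by ΔHMG-SOX9. Moved by 10 kb, these lists overlapped 0.613% and 0.271% of DOX-only peaks.

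DOX-only sites of culture were in part SOX9 sites of skin, and so were no-DOX-only and shared sites. SOX9 lists from skin overlapped 2.01% (1.69 to 2.38) of DOX-only peaks before DOX, 35.8% (34.6 to 37.0) at W1, 34.8% at W2, 47.1% (45.9 to 48.4) at W6 and 38.0% (36.8 to 39.2) at W12. No-DOX-only peaks were overlapped in 5.69% (4.72 to 6.84) before DOX, 37.0% (34.8 to 39.2) at W1, 41.8% (39.5 to 44.0) at W2, 43.7% (41.4 to 45.9) at W6 and 20.7% (19 to 22.7) at W12. The difference of DOX-only minus no-DOX-only peaks was -3.68 points (-4.88 to -2.64) before DOX, -6.93 points (-9.48 to -4.40) at W2 and 3.46 points (0.872 to 6.02) at W6. At W1 the difference of -1.24 points had an interval of -3.76 to 1.24, whereas away from promoters it was 7.92 points (5.02 to 10.7) in favour of DOX-only peaks, and at W2 it was 3.55 points (0.576 to 6.39) there. At W12 the difference was 17.3 points (15.0 to 19.4). Moved lists overlapped between 0.111% and 2.21% of DOX-only peaks in these comparisons. The W12 skin had been grafted, so time and grafting cannot be told apart.

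**Figure D4:**
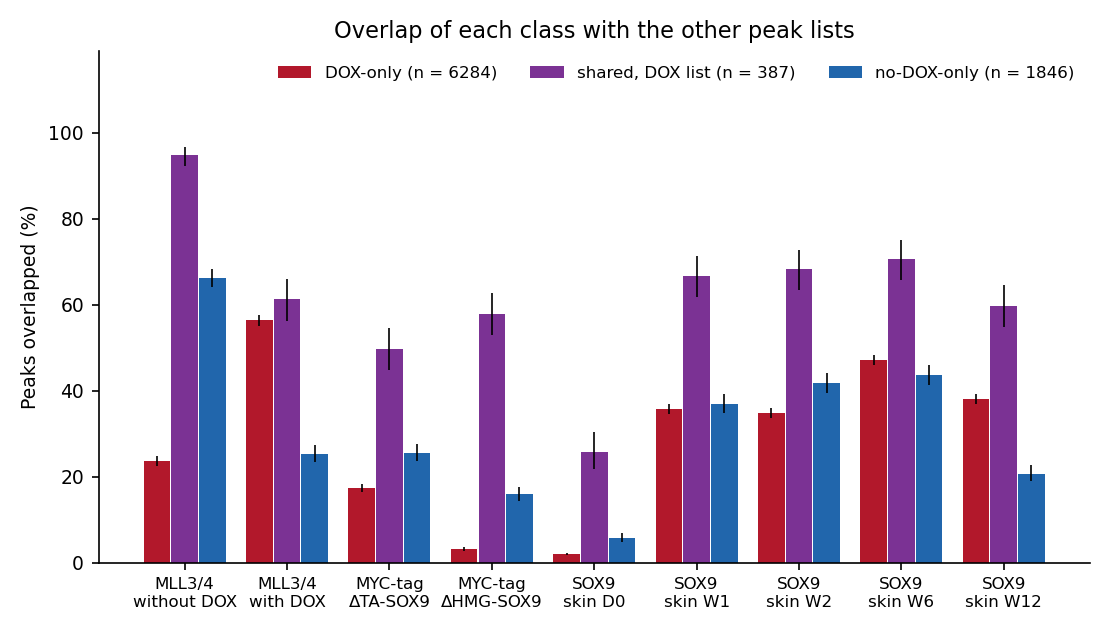
Share of DOX-only, shared and no-DOX-only MYC-tag peaks (%, vertical axis) overlapped by at least 1 bp by 9 other lists (horizontal axis), with 95% Wilson intervals over peaks. MLL3/4 without DOX overlaps 23.6% of DOX-only and 66.2% of no-DOX-only peaks, and MLL3/4 with DOX 56.4% and 25.3%.

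The leading single peaks are described next. The highest DOX-only peak by total signal lay in an intron of Lmnb1 (lamin B1), at chr18:56744767-56745297, with 152 fragments over 531 bp, a SOX word, an MLL3/4 peak with DOX alone and SOX9 peaks in skin at W1 to W12. The next lay in introns of Grik2 and Usp32 (a ubiquitin protease), with 85 and 125 fragments. In Gm35066, 3201 bp from the start of Clca4a, a maximum of 118 fragments was found, and in Gm13710, 42139 bp from the start of Tfpi (a coagulation inhibitor), 47. The other five of the 10 highest lay between genes, near Mc5r (a melanocortin receptor), Gm21961, Tle1 (a Groucho co-repressor of WNT targets), Clec2d and Necab1, with 48 to 97 fragments. All 10 lay on MLL3/4 peaks with DOX and 0 on MLL3/4 peaks without DOX, on ΔTA-SOX9 peaks or on ΔHMG-SOX9 peaks. Of these 10 peaks, 3 held the full SOX word and 6 the core word, next to 46.2% and 73.3% of DOX-only peaks in the highest 10% of the list.

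The 5 highest no-DOX-only peaks were an exon of Kmt2c, which encodes MLL3, with 23 fragments, peaks at the promoter and in an intron of Sfi1 with 12 and 11, the promoter of Cdca3 (a cell cycle gene) with 41 and the promoter of Cyth2 with 11. All 5 lay on MLL3/4 peaks without DOX, and only that of Cyth2 on one with DOX.

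DOX-only peaks were assigned to 3669 of the 21911 protein-coding genes by the nearest start. Of these genes, 580 had at least 3 peaks and 18 at least 10. Grm7, a glutamate receptor gene, had the most with 21, followed by Sfi1 with 20, Zfp608 with 18, Cdh2 (N-cadherin) and Chl1 (a neural adhesion molecule) with 17 each, Btbd3 and Ccser1 with 16 each, Exoc4 (an exocyst subunit) and Sox6 with 14 each and Acvr2a (an activin receptor) with 12. At Grm7, 14 of 21 peaks held the SOX word, 5 lay on MLL3/4 peaks with DOX and 0 on SOX9 peaks of skin at W1. At Sfi1, where 40 shared and 42 no-DOX-only peaks also lay within 50 kb, 1 of 20 held the word and 19 lay on MLL3/4 peaks without DOX. At Sox6, a SOX factor and partner of SOX9 in cartilage, 12 of 14 lay on MLL3/4 peaks with DOX and 7 on SOX9 peaks of skin at W1, and the highest had 75 fragments. At Cdh2 11 of 17 peaks lay on MLL3/4 peaks with DOX and 0 on SOX9 peaks of skin at W1 or W12, and at Btbd3 10 of 16 lay on SOX9 peaks of skin at W12.

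Most of these genes lay on few chromosomes. Of the 10, 8 were on chromosomes 2, 6 and 18, which hold 15.8% of protein-coding genes and 25.2% of DOX-only peaks. DOX-only peaks were densest on chromosome 18 with 4.42 per Mb, chromosome 19 with 4.02 and chromosome 6 with 3.99, and on autosomes sparsest on chromosome 14 with 1.35, chromosome 17 with 1.41 and chromosome 5 with 1.42. Chromosome X had 0.585. Relative to the median autosome, DOX-only peaks stood at 1.81 on chromosome 18 and 0.579 on chromosome 5, and no-DOX-only peaks at 2.2 and 0.710. In the ΔTA-SOX9 list of culture the values were 1.85 and 0.575. In skin at W1 they were 0.895 and 0.859, and at W12 1.03 and 0.881. The median density on chromosomes 6, 18 and 19 was 2.84 times that on chromosomes 4, 5, 14 and 17 for DOX-only peaks, 3.05 times for no-DOX-only peaks and between 0.954 and 1.16 times in the skin lists, where these chromosomes were chosen after the densities were seen. Peak lists hold no measure of DNA copy number, so densities and gene counts are not corrected for it. The part of these densities in the gene counts was not tested.

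**Figure D5:**
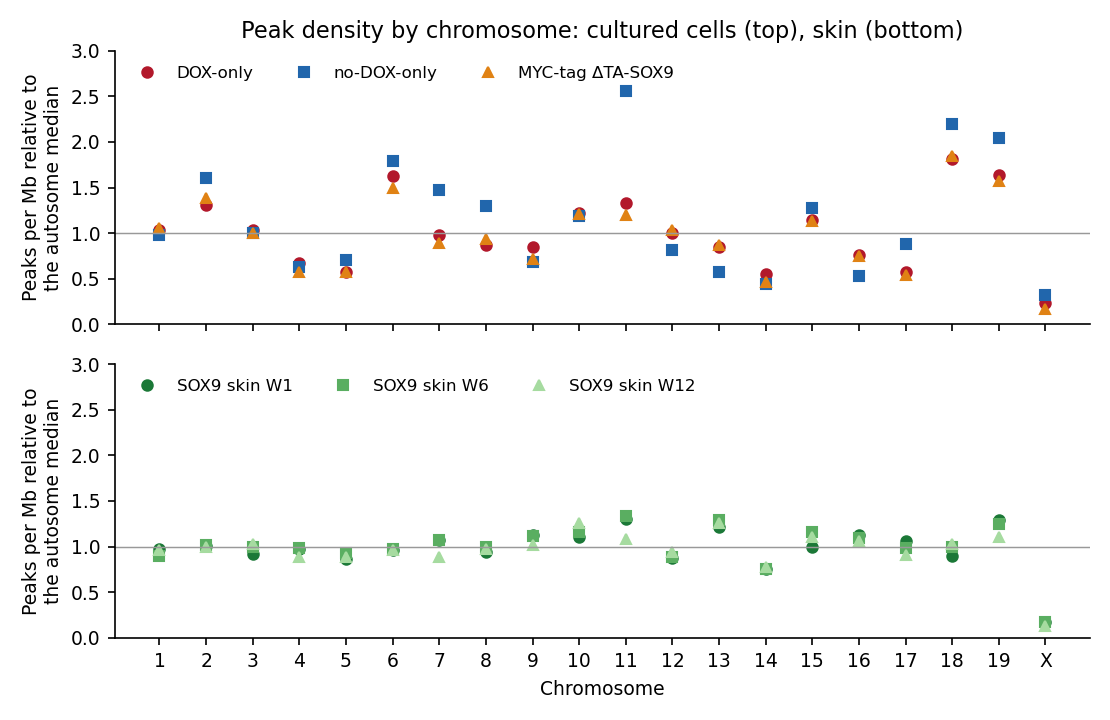
Peaks per Mb on each chromosome (horizontal axis) divided by the median of the autosomes of the same list (vertical axis), for cultured cells (top: DOX-only, no-DOX-only and ΔTA-SOX9 peaks) and for SOX9 in skin at W1, W6 and W12 (bottom). In culture chromosome 18 stands at 1.81 to 2.2 and chromosome 5 at 0.575 to 0.710, while skin stays between 0.859 and 1.03 on both.

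Gene groups were read against all protein-coding genes, of which 6533 (29.8%) had at least 1 DOX-only peak between 50 kb before and 50 kb after the gene, and 17.4% at least 1 no-DOX-only peak. The median over all genes was 0 DOX-only peaks. With peaks in the gene body alone the number was 2196 genes, and above 3600 RPKM 1810. Long genes were reached more often, in 43.2% of the longest 25% of genes and 20% of the shortest, and so were genes of chromosome 18, in 52.4% against 21% on chromosome 17. Members of the groups were chosen with earlier results known, so their counts are a description.

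HFSC transcription factor genes had a DOX-only peak in 8 of 14 (57.1%, 32.6 to 78.6), with a median of 1 peak and a median gene length of 135 kb. No-DOX-only peaks were found in 4 of the 14. Foxp1, a forkhead factor of hair follicle stem cells and a gene of 597 kb on chromosome 6, had 11 DOX-only and 3 no-DOX-only peaks. Runx1 had 5 DOX-only peaks, and Gli3 (a mediator of hedgehog signals) and Nfib (a chromatin regulator of these stem cells) had 4 each. At Runx1 the highest of the 5 had 36 fragments and lay on MLL3/4 peaks with and without DOX, and all but 1 overlapped SOX9 peaks of skin at W1 and all 5 at W12. By nearest start, 11 peaks went to Runx1, 10 of which overlapped SOX9 peaks of skin at W12. HFSC surface and secreted markers had DOX-only peaks in 6 of 14, with 4 at Col17a1 (collagen XVII of hemidesmosomes), 2 at Edar (the ectodysplasin receptor) and 1 each at Dkk3, Krt17, Lgr5 and Npnt. Krt17 also had 3 no-DOX-only peaks, and its DOX-only peak lay farther than 10 kb from the gene.

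Epidermal fate factor genes had DOX-only peaks in 8 of 17 (47.1%, 26.2 to 69.0) and no-DOX-only peaks in 7. Prdm1, Trp63 (p63, the master factor of stratified epithelia) and Zfp750 had 2 DOX-only peaks each, and Cebpa, Grhl1, Grhl2, Hes1 and Tfap2a had 1 each. Within 10 kb of the gene, Prdm1, Cebpa and Tfap2a had 0. Those at Trp63 had 14 and 11 fragments, and neither lay on an MLL3/4 peak or on a SOX9 peak of skin at W1 or W12. Gata3, a factor of epidermal fate, had 0 DOX-only peaks within 50 kb and 1 shared peak of 21 fragments, at chr2:9835299-9835417, which overlapped MLL3/4 peaks with and without DOX and SOX9 peaks of skin at W1 and W12. By nearest start 7 DOX-only peaks were assigned to Gata3, all of them farther than 50 kb from the gene.

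Epidermal structural genes had DOX-only peaks in 14 of 26 (53.8%, 35.5 to 71.2) and no-DOX-only peaks in 12. Dsg3, a desmosomal cadherin on chromosome 18, had 5, Krt5 (a basal keratin) and Pkp1 (a desmosomal plaque protein) had 4 each, and Itga6 had 3. The 4 DOX-only peaks around Krt5 had 11 to 17 fragments, all lay on MLL3/4 peaks with DOX, and a shared peak of 13 fragments stood beside them. Integrin and laminin genes had DOX-only peaks in 17 of 25 (68.0%, 48.4 to 82.8), with a median gene length of 99.0 kb, and no-DOX-only peaks in 11 (44.0%, 26.7 to 62.9). Itgb1, the common beta chain of many integrins, had 6, Lama3 had 5 and Lama4 and Lamc1 had 4 each. Within 10 kb the counts were 4 at Itgb1, 1 at Lama3, 4 at Lama4 and 1 at Lamc1, and by nearest start 0 peaks went to Lama3.

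Of the signalling pathways, the share of genes with a DOX-only peak ran from 27.3% in the Notch list to 53.3% in the TGF-beta and BMP list. Within 10 kb of the gene it was 14.3% in the hedgehog, 26.7% in the WNT and 18.2% in the Notch list. In the TGF-beta and BMP list it was 43.3%, and over all protein-coding genes 15.2%. Hedgehog genes had DOX-only peaks in 5 of 14 (35.7%, 16.3 to 61.2), of which Gli3 had 4, Disp1 2 and Hhat, Shh and Sufu 1 each. WNT genes had them in 17 of 45 (37.8%, 25.1 to 52.4), with 5 at Lrp6 (a WNT co-receptor), 4 at Fzd7 (a WNT receptor, 0 of them within 10 kb) and 3 each at Gsk3b, Tcf7l2 and Znrf3. Ctnnb1, which encodes beta-catenin, had a single peak, of 11 fragments, at a promoter. Notch genes had them in 6 of 22 (27.3%, 13.2 to 48.2), with 5 at Maml2, 2 at Notch2 and 1 each at Hes1, Hey2, Maml3 and Notch1. In TGF-beta and BMP genes the count was 16 of 30 (53.3%, 36.1 to 69.8), with a median gene length of 66.9 kb and mostly 1 peak a gene, led by Smad2 (a TGF-beta effector, chromosome 18) with 3 and the receptors Acvr1 and Bmpr1b with 2 each. No-DOX-only peaks were found in 2 of 14 hedgehog, 7 of 45 WNT, 6 of 22 Notch and 5 of 30 TGF-beta and BMP genes.

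Among SOX genes 5 of 20 (25%, 11.2 to 46.9) had DOX-only peaks, 12 of them at Sox6, 3 at Sox5 and 1 each at Sox8, Sox11 and Sox15. The cartilage genes that SOX9 is known to regulate had them in 6 of 15 (40.0%, 19.8 to 64.3), Sox6 and Sox5 included, with 2 each at Col9a3 (collagen IX) and Matn4. RUNX genes had them in 3 of 4, with 5 at Runx1, 2 at Runx2 and 1 at Cbfb, and no-DOX-only peaks in 2 of 4. Genes of AP-1 proteins had DOX-only peaks in 4 of 14 (28.6%, 11.7 to 54.6) and no-DOX-only peaks in 6, with 1 DOX-only peak each at Batf, Batf3, Fos and Fosb. Of the genes for MLL3/4 and SWI/SNF subunits, 9 of 18 had a DOX-only peak, led by Ncoa6 and Smarca2 with 2 each, and the other 7 genes had 1 each.

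Genes of epithelial-mesenchymal transition had DOX-only peaks in 4 of 12 (33.3%, 13.8 to 60.9). Cdh2 had 5 within 50 kb, Tcf4 4, Zeb2 3 and Vim (vimentin) 2, and Cdh2 and Tcf4 lie on chromosome 18. The peaks at Vim had 26 and 12 fragments. Among markers of other cell types, 3 of 10 melanocyte genes had DOX-only peaks, with 8 at Mitf on chromosome 6 and 1 each at Tyr and Tyrp1. No-DOX-only peaks were also found in 3 of 10 melanocyte genes. The counts with DOX-only peaks were 1 of 8 for fibroblast markers (Col1a1), 3 of 8 (37.5%, 13.7 to 69.4) for immune cell markers and 2 of 6 for endothelial markers (1 each at Kdr and Vwf). Cytosolic ribosomal protein genes, with a median length of 3.33 kb, had a DOX-only peak in 24 of 80 (30%, 21.1 to 40.8), near the share of all genes, with at most 2 a gene.

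DOX-only peaks also stood closer to one another than no-DOX-only peaks did. Another DOX-only peak lay within 50 kb of 48.7% (47.5 to 50.0) of them, and another no-DOX-only peak within 50 kb of 24.5% (22.6 to 26.6) of no-DOX-only peaks. Their number on the same genome is larger, so closeness and number cannot be told apart here.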

How the data were processed

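MYC-tag CNR of WT-SOX9 cells with and without DOX was compared, 2 samples each, grouped by their labels. The authors aligned paired reads to mm10 with Bowtie2 2.2.9, removed duplicates, kept fragments of at most 120 bp with SAMtools 1.3.1, combined replicates, made RPKM tracks with deepTools 3.1.2 and called peaks with SEACR (stringent, 0.01). In the deposited MYC-tag and SOX9 lists the maximum is in RPKM, and the pooled lists were cut by the authors at 1800. The total signal is the deposited sum of signal over a peak. The pooled MLL3/4 lists hold unscaled coverage as deposited, so signal was compared within a unit only and ranks within a list.

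Here, overlaps, words and distances were computed with Python 3.11.15, pandas 2.3.3, numpy 2.4.6 and pysam 0.24.0, figures with matplotlib 3.10.9, on mm10 and GENCODE vM21, and tested on simulated data. Local backgrounds came from lists moved by 10 kb and from windows 1 kb away. Named genes were the leading members of each gene list, the highest 10 DOX-only, 5 shared and 5 no-DOX-only peaks, the 10 genes with most DOX-only peaks and 7 loci the study names. Sequences were printed outside chromosome 18. Members and lists were chosen with earlier results of these data known. Mitochondrial peaks (4, in the list of replicate 1) were left out. Of the immune cell markers 1 is not reported here, and the counts are over the other 8. With 1 list per group, p-values could not be computed.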

Additional observations from a re-analysis of the deposited data

How the results depend on the processing

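No paired analysis was possible because each group has 1 pooled list, and leaving out DOX replicates or no-DOX replicate 1 could not be run because no list without them was used here. The share of DOX peaks without a no-DOX peak stayed between 90.9% and 96.3%: 93.2% with peaks widened by 500 bp, 96.3% above 3600 RPKM and 94.9% without soft-masked peaks, an alternative chosen after seeing the data. Without no-DOX replicate 2 it was 90.9% to 94.3%. The share of no-DOX peaks without a DOX peak was 78.1% widened, 55.5% above 3600 RPKM (128 peaks left), 93.4% in lists of equal size (DOX list 93.8%) and, without no-DOX replicate 2, 82.3% to 90.3%.

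The promoter share of DOX-only peaks was 9.05% above 3600 RPKM, 21.4% with a window of 2.5 kb and 12.6% without no-DOX replicate 2. That of no-DOX-only peaks was 73.2% (71 peaks), 46.7% and 38.9%, and 42.3% without soft-masked peaks.

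The SOX word share of DOX-only peaks was 46.4% above 3600 RPKM, 59.5% for the core word, 12.2% for the long word, 47.0% in windows of 100 bp to each side and 35.8% without no-DOX replicate 2. That of no-DOX-only peaks was 1.41%, 11.1%, 1.08%, 9.70% and 5.07%. The ratio to control windows was 3.67 to 11 in DOX-only and 0.286 to 1.03 in no-DOX-only peaks.

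MLL3/4 without DOX overlapped 20.5% of DOX-only peaks above 3600 RPKM, 17.5% with the upper 50% of its list, 13.3% with that list cut to the size of the list with DOX (added after seeing the data) and 22.4% at an overlap of 50% of the shorter peak. Genes with a DOX-only peak numbered 3330 within 10 kb, 2196 in the gene body, 3669 by nearest start and 1810 above 3600 RPKM. Counts of genes thus depend on the window. At 9 to 11 fragments a peak, absence from a list shows only that no peak passed its threshold.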

Other observations

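Of the 2350 DOX-only peaks on no MLL3/4 peak of culture with or without DOX, 5.49% (4.64 to 6.49) held a facing pair of SOX core words, against 2.90% (2.30 to 3.64) of the 2451 on an MLL3/4 peak with DOX alone and 1.83% (1.19 to 2.81) of the 1091 on MLL3/4 peaks with and without DOX. The peaks on no MLL3/4 peak were narrower, with a median width of 143 bp against 234 bp and 221 bp. The 392 on an MLL3/4 peak without DOX alone were as narrow, at 142 bp, and held a facing pair in 1.28% (0.546 to 2.95). No explanation was tested.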
